A study of Homo sapiens with 12 samples.

Results

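The clustered protocadherins are 3 neighbouring groups of genes on human chromosome 5, and their expression was measured in RD cells with and without a knockdown of EHMT1. The genes were chosen by name: protein-coding genes whose symbol starts with PCDHA, PCDHB or PCDHG followed by a letter or a digit. Of the 61552 gene identifiers in the count tables, 53 met this rule, with 15 in the PCDHA (alpha) cluster, 16 in the PCDHB (beta) cluster and 22 in the PCDHG (gamma) cluster. Another 7 symbols of the same form are not protein-coding and were left out. RD is an established human line derived from embryonal rhabdomyosarcoma, a childhood type of sarcoma with features of developing skeletal muscle. The cells received either a scrambled small interfering RNA (siRNA, a short RNA duplex that leads to the degradation of transcripts it matches), which served as the control, or an siRNA against EHMT1. Each group had 3 libraries of poly-A RNA, taken 48 h after transfection, and RD was the sole cell line in both. The EHMT1 protein (GLP) works with EHMT2 (G9a) to methylate histone H3 at lysine 9. A further 6 libraries of the series, from another knockdown, were not analysed here.

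Protocadherins of these clusters are cell surface proteins of the cadherin superfamily, best known from neurons, where each cell uses a few members and matching extracellular domains on neighbouring membranes bind each other. In the alpha and gamma clusters each gene has its own promoter and a large variable exon for the extracellular, transmembrane and first cytoplasmic part, which is spliced to constant exons that all members of the cluster share. Beta genes lack such constant exons. The last members of the alpha and gamma clusters are called C-type and are expressed more broadly among neurons, whereas promoter choice among the others involves the DNA-binding protein CTCF, cohesin, DNA methylation and histone H3 lysine 9 methylation. Transcription of long noncoding RNA antisense to alpha variable exons has also been described.

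The shared exons decide what a count per gene means here. In the GENCODE 29 annotation, 2866 bases were exonic in each of the 15 alpha genes and 2181 bases in each of the 22 gamma genes, while 0 bases were shared by the beta genes. Reads that lie in exons of several genes are not counted for any gene in count tables of this kind. The values below are therefore counts over exonic bases of 1 gene alone, and the constant exons of the alpha and gamma transcripts do not add to them. In alpha and gamma genes such bases may include other annotated sequence besides the variable exon. They amounted to 10574 bases in PCDHA4 and 2011 in PCDHA12. Bases exonic in 1 member alone amounted to 68488 in the alpha, 67380 in the beta and 73193 in the gamma cluster.

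Promoter sequences are shown for the 3 genes that passed the test of the knockdown (PCDHB10, PCDHGA9 and PCDHGA10) and for PCDHGC3, the member with the most counts. They come from RefSeq on GRCh38.p14, all on the plus strand of chromosome 5, from 250 bases before to 50 after the annotated start: PCDHB10 at chr5:141192103-141192402, PCDHGA9 at chr5:141402528-141402827, PCDHGA10 at chr5:141412737-141413036 and PCDHGC3 at chr5:141475716-141476015. Capitals mark CGCT on either strand (AGCG on the strand shown), the core of the element that is conserved among clustered protocadherin promoters.
PCDHB10: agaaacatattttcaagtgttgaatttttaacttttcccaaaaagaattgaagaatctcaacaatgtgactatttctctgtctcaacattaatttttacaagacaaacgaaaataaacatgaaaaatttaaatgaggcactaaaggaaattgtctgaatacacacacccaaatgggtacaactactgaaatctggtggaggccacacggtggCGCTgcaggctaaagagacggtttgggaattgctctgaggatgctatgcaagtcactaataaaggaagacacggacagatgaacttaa
PCDHGA9: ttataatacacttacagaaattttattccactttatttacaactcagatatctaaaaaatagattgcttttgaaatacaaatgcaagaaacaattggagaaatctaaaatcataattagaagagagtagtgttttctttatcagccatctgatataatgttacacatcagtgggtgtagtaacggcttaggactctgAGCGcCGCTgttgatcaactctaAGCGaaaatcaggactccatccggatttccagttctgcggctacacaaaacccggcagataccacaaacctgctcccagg
PCDHGA10: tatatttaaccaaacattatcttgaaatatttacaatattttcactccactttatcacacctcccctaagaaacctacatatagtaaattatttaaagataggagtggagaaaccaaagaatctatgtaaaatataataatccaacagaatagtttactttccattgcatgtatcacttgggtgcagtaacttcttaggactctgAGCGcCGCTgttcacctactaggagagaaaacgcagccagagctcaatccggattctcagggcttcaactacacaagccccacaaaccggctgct
PCDHGC3: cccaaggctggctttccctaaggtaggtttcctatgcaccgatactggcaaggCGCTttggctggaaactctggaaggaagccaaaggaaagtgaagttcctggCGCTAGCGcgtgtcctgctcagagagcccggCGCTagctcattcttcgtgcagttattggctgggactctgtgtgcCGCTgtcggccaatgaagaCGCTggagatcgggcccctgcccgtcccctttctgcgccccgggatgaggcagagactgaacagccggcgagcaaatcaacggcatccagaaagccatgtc
The PCDHB10 window held 1 such match, PCDHGA9 held 3, PCDHGA10 held 2 and PCDHGC3 held 6. G and C made up 59% of the PCDHGC3 window, against 36.7% for PCDHB10, 37.7% for PCDHGA9 and 38.3% for PCDHGA10.

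A window was at hand for 47 of the 53 genes, and 5 of these had more than 1 window. CGCT was found on either strand in 46 of the 47 genes (97.9%, with PCDHA9 the exception) and in 70.0% of all 35116 RefSeq windows of the same length. Here and below, a gene counted when any of its windows matched, whereas the shares of all windows are per window. A longer word seen in the beta promoters, TGGCGCT (which contains CGCT), was searched for after these sequences had been read. It occurred on either strand in 13 of 14 beta genes, 3 of 20 gamma genes and 0 of 13 alpha genes with a window, against 4.08% of all windows. The windows of PCDHGA9 and PCDHGA10 share an unbroken run of 24 bases, cttaggactctgAGCGcCGCTgtt, which starts at base 186 of the first window and base 194 of the second. The run was found by comparing the windows of these 2 genes, which were picked because they were called, and no other pair was compared. That none of the other gamma A and gamma B genes with a window (18 in all) held the full run follows largely from this choice. The word inside it, AGCGCCGCT, was taken from this run, so PCDHGA9 and PCDHGA10 are 2 of its matches by construction. On either strand it occurred in 4 of 20 gamma genes, 0 of 14 beta genes and 0 of 13 alpha genes with a window. Its share of all windows was 0.476%.

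The libraries held 40639655 to 47258481 gene counts, and 3 counts, the level that a count of 0 still allows, corresponded to 0.0635 to 0.0738 CPM (counts scaled to library size), for counting error only. Differences between libraries within a group exceeded sampling noise, and scrambled replicate 2 stood apart: its chi-square per degree of freedom was 18.7 and 17.0 against scrambled replicates 1 and 3, compared with 8.05 between those 2 and 2.80 to 3.12 among the EHMT1 siRNA libraries. EHMT1 itself lay at 130.9, 155.9 and 130.1 CPM with scrambled siRNA and at 53.2, 54.4 and 57.6 CPM with EHMT1 siRNA, so that 39.6% of its level was left (log2 fold change -1.34, SE 0.072, edgeR adjusted p = 9.13e-09; exact two-sided permutation p = 0.1, the smallest that 3 against 3 libraries allow). Muscle markers were present (MYOD1, the myogenic transcription factor, at 151.4 CPM and DES, the muscle intermediate filament desmin, at 311.4 CPM with scrambled siRNA), while MYF5 had 0 counts in every library. Whether the replicates came from separate cultures is not in the labels, and the spread on which the p-values rest may be technical.

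With EHMT1 siRNA, 3 of the clustered protocadherins fell and 0 rose: PCDHB10 of the beta cluster, and PCDHGA9 and PCDHGA10 of the gamma cluster (edgeR adjusted p under 0.05). That is 3 of the 44 members with enough counts to be tested, or 6.82%, set against 12.4% of all 18646 genes tested (6.54% lower and 5.81% higher). The share of all genes called depended on level: 2.68% under 1 CPM, 5.46% from 1 to 2 CPM, 10.7% from 2 to 8 CPM and 17.9% above 8 CPM. Of the tested members, 17, 4, 13 and 10 were in these ranges, and all 3 calls lay between 2 and 8 CPM. At an unadjusted p under 0.05, 1 member was higher and 8 were lower, against 12.4% and 13.2% of all genes, and DESeq2 also called 0 members higher. Of the 44, 27 had a log2 fold change below 0 and the median was -0.06, compared with 49.8% of all genes below 0 and a median of 0.00. For 9 tested members, 8 lower and 1 higher, no library of one group lay within the range of the other, against 30.9% of all genes. The 9 genes with too few counts for the test were PCDHA1, PCDHB1, PCDHGA3, PCDHGB1, PCDHGA5, PCDHGA7, PCDHGB4, PCDHGB5 and PCDHGA12. Low counts limited what could be seen: the 17 tested members under 1 CPM had a median SE of 0.45 on the log2 scale, against 0.14 for the 27 others. In such bulk samples, fewer cells with a transcript and less of it per cell cannot be told apart.

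**Figure D1:**
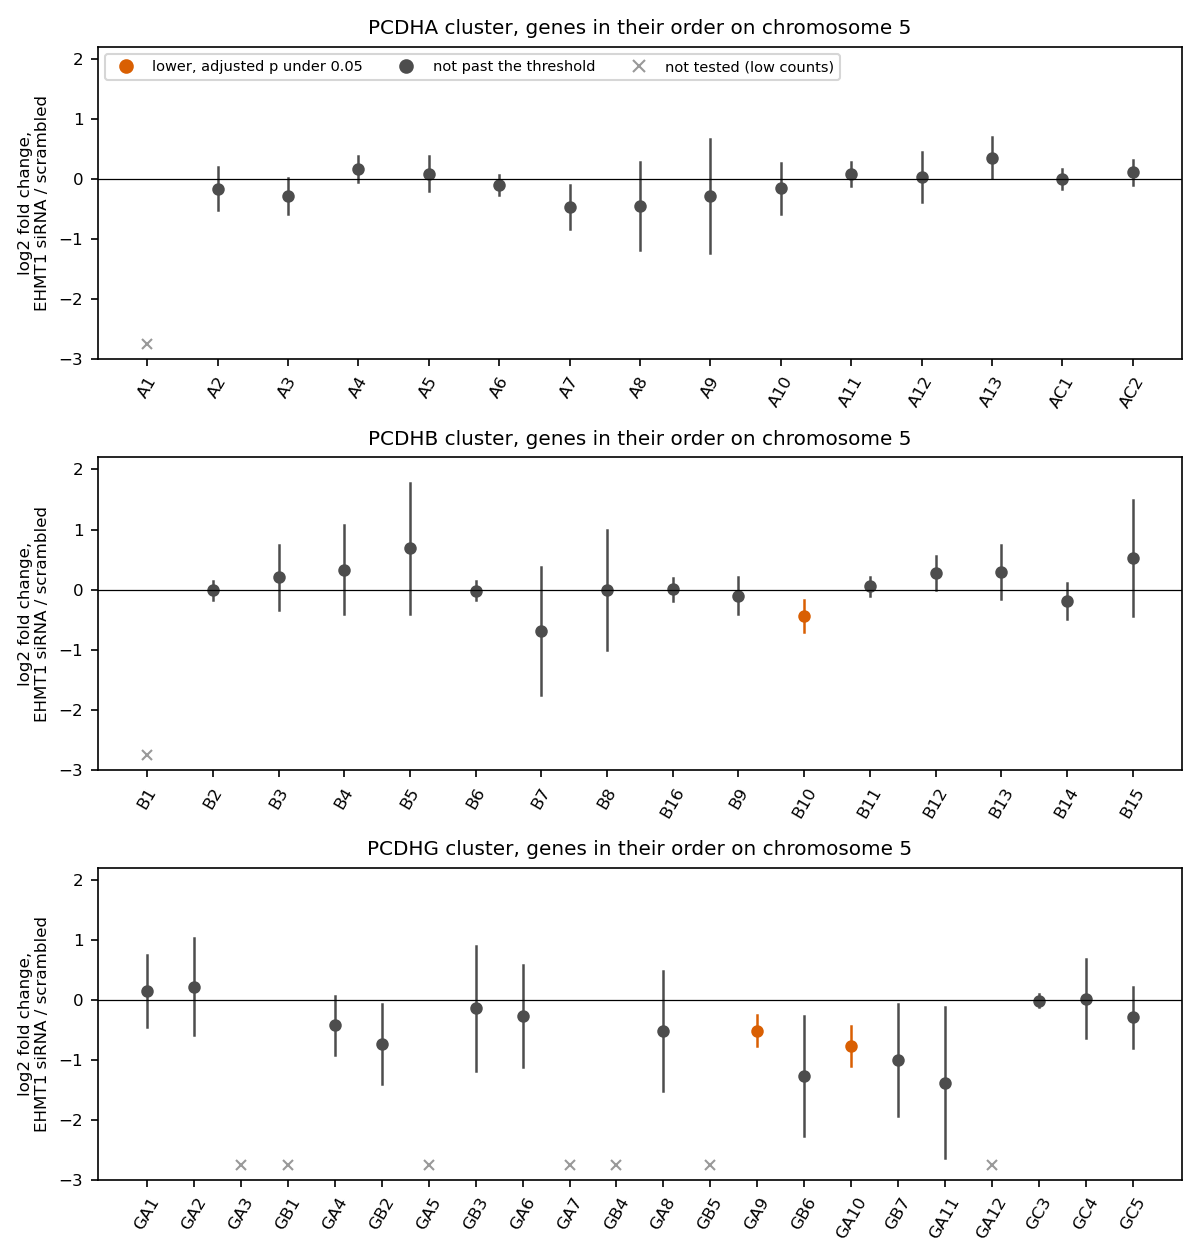
Log2 fold change of EHMT1 siRNA over scrambled siRNA (vertical axis) for each gene in its chromosomal order within the alpha, beta and gamma clusters, with 95% intervals from the edgeR fit on 3 against 3 libraries. Orange points mark the 3 genes called lower, crosses mark the 9 genes not tested, and among the C-type genes at the right end of the alpha and gamma panels PCDHGC5 lies farthest from 0, at -0.29.

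In the alpha cluster, 0 of the 14 tested genes rose and 0 fell, with edgeR and with DESeq2. Among all genes tested, edgeR called 12.4%. At an unadjusted p under 0.05, 1 alpha gene was higher and 1 lower. Summed over its 15 genes, the cluster gave 86.7, 91.0 and 91.8 CPM in the scrambled libraries and 91.2, 89.6 and 90.9 CPM in the EHMT1 siRNA libraries. These ranges overlap and the ratio of the means was 1.01. The 2 C-type genes led the cluster by unstranded counts, while in the second strand column PCDHA6 led on average (17.9 CPM with scrambled siRNA, against 16.1 for PCDHAC1 and 15.1 for PCDHAC2). PCDHAC1 lay at 18.4, 16.6 and 15.9 CPM with scrambled siRNA and at 16.5, 16.9 and 17.4 CPM with EHMT1 siRNA, with a log2 fold change of 0.00 (95% interval -0.17 to 0.16). PCDHAC2 lay at 14.4, 19.3 and 15.5 CPM with scrambled siRNA and at 17.9, 17.1 and 18.3 CPM with EHMT1 siRNA, with a log2 fold change of 0.12 (95% interval -0.09 to 0.32). For both genes the libraries of the groups overlapped. Without scrambled replicate 2, which had the highest PCDHAC2 level of all 6 libraries, PCDHAC2 was called higher (log2 fold change 0.24, edgeR adjusted p = 0.0303).

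Of the 12 tested alpha variable genes, 7 had a log2 fold change below 0 and 5 above. PCDHA7 had the largest negative value, -0.46 (95% interval -0.82 to -0.09, edgeR adjusted p = 0.100), with 3.74, 2.95 and 3.89 CPM in the scrambled libraries and 2.86, 1.98 and 2.88 CPM in the EHMT1 siRNA libraries. Its groups did not overlap, and it was called lower without scrambled replicate 2 (log2 fold change -0.57, edgeR adjusted p = 0.0179). PCDHA13 had the largest positive value, 0.36 (95% interval 0.02 to 0.70, edgeR adjusted p = 0.174), from 2.61, 2.00 and 2.47 CPM to 2.89, 3.33 and 2.88 CPM. It was the single tested member whose EHMT1 siRNA libraries all lay above the scrambled ones. PCDHA3, at -0.28 with all libraries, was called lower without scrambled replicate 2 (-0.40, edgeR adjusted p = 0.0385).

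In the beta cluster, whose genes are each a complete transcription unit, 0 of 15 tested genes rose and 1 fell by edgeR's test. That is 6.67% called lower, against 6.54% of all genes. At an unadjusted p under 0.05, 0 beta genes were higher and 1 lower. The gene that fell was PCDHB10 (ENSG00000120324), whose promoter with a single CGCT is printed above. It lay at 4.55, 4.63 and 5.18 CPM with scrambled siRNA and at 3.48, 3.57 and 3.56 CPM with EHMT1 siRNA, a fall to 73.9% of its level. All EHMT1 siRNA libraries were below all scrambled ones, with a log2 fold change of -0.44 (SE 0.13, edgeR adjusted p = 0.0317). This call was lost with DESeq2 (adjusted p = 0.0537), with the second strand column (edgeR adjusted p = 0.0508), without scrambled replicate 3 (0.0867) and without EHMT1 siRNA replicate 1, 2 or 3 (0.123, 0.111 and 0.109).

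The most counted beta genes did not pass the test. PCDHB2 lay at 28.7, 24.3 and 28.1 CPM with scrambled siRNA and at 25.9, 27.2 and 27.5 CPM with EHMT1 siRNA (log2 fold change -0.01, 95% interval -0.17 to 0.15). PCDHB11 lay at 22.1, 24.3 and 24.4 CPM against 23.2, 26.2 and 24.0 CPM (log2 fold change 0.05, 95% interval -0.10 to 0.21). For both genes the groups overlapped. PCDHB12 had a log2 fold change of 0.28 (95% interval 0.00 to 0.56, edgeR adjusted p = 0.200). PCDHB13, at 0.29 with all libraries, was called higher without scrambled replicate 2 (0.59, edgeR adjusted p = 0.0390). Over the 16 beta genes the sums were 100.6, 97.0 and 104.8 CPM with scrambled siRNA and 99.1, 102.3 and 101.6 CPM with EHMT1 siRNA, with a ratio of means of 1.00.

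In the gamma cluster, 0 of 15 tested genes rose by edgeR's test and 2 fell, both of the gamma A subfamily. That is 13.3% called, against 12.4% of all genes called and 6.54% called lower. At an unadjusted p under 0.05, 0 gamma genes were higher and 6 lower, against 12.4% and 13.2% of all genes. The C-type gene that supplied most of the counts kept a level within its spread. PCDHGC3 (ENSG00000240184) lay at 232.1, 239.2 and 224.5 CPM with scrambled siRNA and at 227.2, 230.4 and 233.4 CPM with EHMT1 siRNA. The groups overlapped, with a log2 fold change of -0.01 (95% interval -0.12 to 0.10). The other C-type genes were far lower and did not pass the test: PCDHGC4 was at 0.73 ± 0.23 and 0.75 ± 0.16 CPM, and PCDHGC5 at 1.32 ± 0.34 and 1.08 ± 0.12 CPM (SD, n = 3 each).

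PCDHGA10 (ENSG00000253846) had the smallest adjusted p of all members. It lay at 3.06, 2.98 and 3.13 CPM with scrambled siRNA and at 1.77, 1.71 and 1.90 CPM with EHMT1 siRNA, which left 58.8% of its level. The 2 groups were far apart relative to their spread, with a log2 fold change of -0.77 (SE 0.16, edgeR adjusted p = 0.00429), and the gene was called in all 15 settings tried. PCDHGA9 (ENSG00000261934), which lies near it in the cluster, was at 5.98, 6.23 and 6.71 CPM with scrambled siRNA and at 4.92, 3.93 and 4.42 CPM with EHMT1 siRNA, which left 70.1%. Its groups did not overlap either, with a log2 fold change of -0.51 (SE 0.12, edgeR adjusted p = 0.0106), but it did not pass once EHMT1 siRNA replicate 2 (adjusted p = 0.0859) or replicate 3 (0.0529) was left out.

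**Figure D2:**
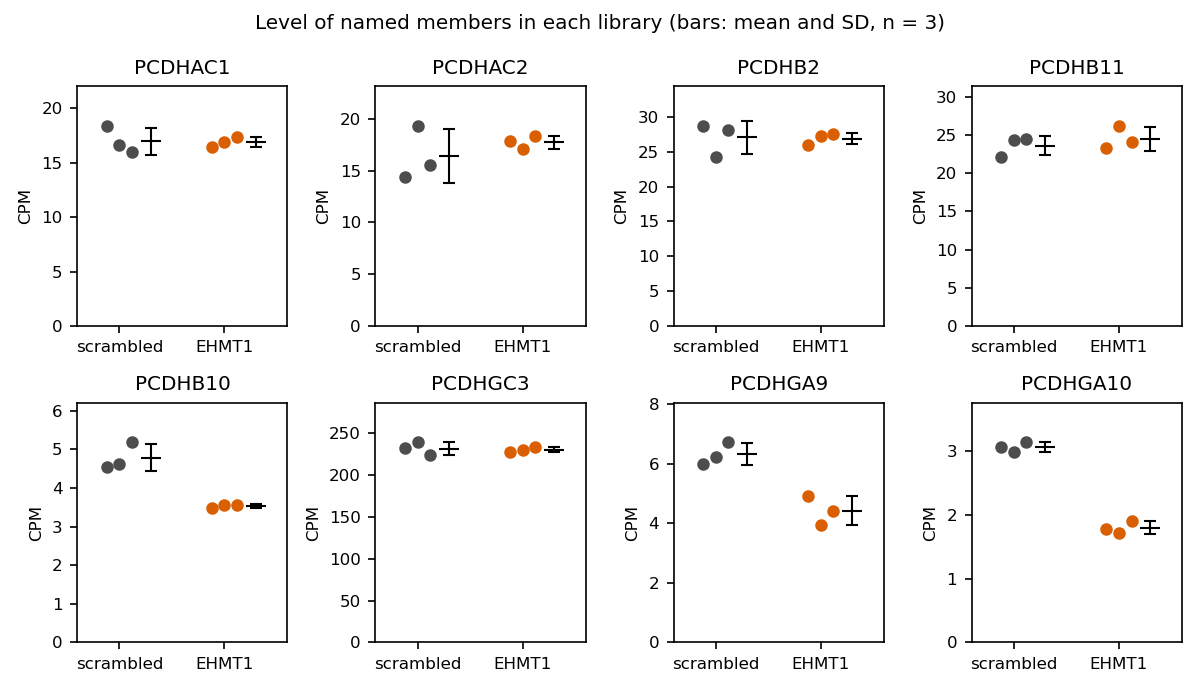
Level in CPM (vertical axis, from 0) of the 2 most counted genes of each cluster and of the genes called lower, 1 point per library, with the mean and SD of 3 libraries beside each group. PCDHB10, PCDHGA9 and PCDHGA10 show separate groups, and the other 5 genes show overlapping ones.

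Most other gamma A and gamma B genes lay near or under 1 CPM, and their values are uncertain. PCDHGA4, the highest of them, lay at 1.90, 2.68 and 1.34 CPM with scrambled siRNA and at 1.30, 1.62 and 1.49 CPM with EHMT1 siRNA, with overlapping groups (log2 fold change -0.42, SE 0.23, edgeR adjusted p = 0.276). PCDHGB6, the member with the smallest adjusted p among those not called, had 24, 15 and 24 counts in the scrambled libraries and 3, 11 and 11 counts in the EHMT1 siRNA libraries (log2 fold change -1.26, 95% interval -2.25 to -0.27, edgeR adjusted p = 0.0913). It was called without scrambled replicate 2 (-1.42, edgeR adjusted p = 0.0456). PCDHGA11 had 23, 19 and 15 counts against 9, 12 and 0 (log2 fold change -1.37, 95% interval -2.63 to -0.12, edgeR adjusted p = 0.152). PCDHGB7 had 22, 25 and 26 counts against 5, 10 and 20, and PCDHGB2 had 42, 51 and 39 against 28, 34 and 15 (95% intervals of the log2 fold change -1.94 to -0.07 and -1.39 to -0.07, edgeR adjusted p = 0.158 and 0.145). Of these 4 genes, PCDHGB7 alone had overlapping groups in CPM. Not every gene of the subfamilies leaned the same way: PCDHGA1 had a log2 fold change of 0.16 (95% interval -0.45 to 0.76) and PCDHGA2 of 0.22 (95% interval -0.59 to 1.02).

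Sums over whole subfamilies include the genes that were too low to test. The 12 gamma A genes together gave 13.9, 15.9 and 14.4 CPM with scrambled siRNA and 10.1, 10.6 and 10.4 CPM with EHMT1 siRNA, which is 29.6% lower. The 7 gamma B genes together gave 2.37, 2.78 and 2.64 CPM against 1.37, 1.71 and 1.54 CPM, which is 40.7% lower. In both subfamilies every EHMT1 siRNA library lay below every scrambled library. The 3 gamma C-type genes gave 233.8, 241.0 and 227.2 CPM against 229.0, 232.3 and 235.3 CPM, with overlapping groups. Because of PCDHGC3 the whole gamma cluster had a ratio of means of 0.971 and overlapping groups. Gamma A and gamma B were joined after their values had been seen: their 19 genes had 762, 747 and 722 counts against 486, 509 and 491, or 17.3 ± 1.24 CPM against 11.9 ± 0.391 CPM (SD, n = 3 each), a ratio of 0.688 that stayed between 0.668 and 0.716 over all the settings tried for it. Sums were not tested, since the genes were chosen with results known, and PCDHGA9 and PCDHGA10 make up much of the gamma A sum.

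**Figure D3:**
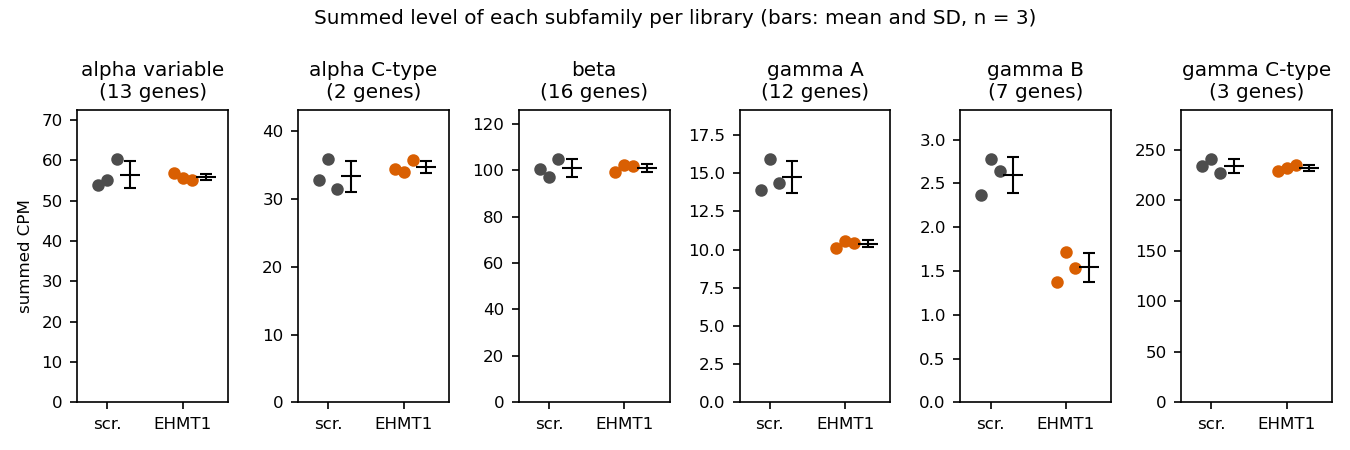
Summed CPM (vertical axes, each from 0 and on its own scale) of all members of each subfamily, 1 point per library, with the mean and SD of 3 libraries. Gamma A and gamma B lie lower in all 3 EHMT1 siRNA libraries (10.1 to 10.6 and 1.37 to 1.71 CPM), and the other subfamilies overlap.

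Markers of other cell types were read beside the gamma values. The 11 neuron markers summed to 610.3 to 703.2 CPM with scrambled siRNA and to 511.2 to 545.7 CPM with EHMT1 siRNA, so this sum was lower too. Most of it came from NEFM and NEFL, neurofilament subunits (log2 fold changes -0.60 and -0.38, both called lower), and MAP2 (-0.15, not called). SNAP25, SYP, SYT1 and STMN2, markers of synapses and growing axons, had positive log2 fold changes and did not pass the test (0.20, 0.35, 0.10 and 0.54), and the median of the 7 tested neuron markers was 0.10. The defining neuronal genes RBFOX3, ELAVL3, ELAVL4 and GAP43 were each at 0.169 CPM or less in every library. Blood and immune markers (6 genes) summed to at most 0.366 CPM in any library, and endothelial markers (5 genes) to 16.4 to 18.0 CPM against 16.7 to 18.3 CPM, nearly all TEK. The 6 epithelial markers summed to 74.6 to 84.8 CPM against 80.4 to 84.5 CPM, with KRT19 at 0 in every library. The 11 muscle markers summed to 1476 to 1690 CPM against 1656 to 1724 CPM, and 2 of them rose by edgeR's test: PAX7, a factor of muscle stem cells (log2 fold change 0.28, adjusted p = 0.00580), and TNNT2, a troponin (0.62, adjusted p = 0.00958). The part of these markers in the gamma result was not tested.

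Within each cluster a few genes supplied most of the counts, and these led the cluster in both groups. PCDHAC1, PCDHAC2 and PCDHA6 together held 53.1% of alpha counts in both groups. PCDHB2, PCDHB11 and PCDHB6 held 68.2% of unstranded beta counts with scrambled and 68.5% with EHMT1 siRNA. Unstranded counts understate PCDHB2: in the second strand column it gave 81.5 CPM of a beta sum of 161.0 CPM with scrambled siRNA. PCDHGC3 alone held 92.8%, 92.1% and 91.9% of gamma counts in the scrambled libraries and 94.5%, 94.2% and 94.4% in the EHMT1 siRNA libraries. That share was higher in every EHMT1 siRNA library, while the level of PCDHGC3 itself overlapped between groups and the gamma A and B sums were lower.

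Levels of different genes can be compared per length of counted exon, here from unstranded counts. These undercount PCDHB2, which had 2.90 times as many counts in the second strand column, so its level per length is too low. With scrambled siRNA, PCDHGC3 led at 71.3 ± 2.26 CPM per kb (SD, n = 3), followed by PCDHB2 at 7.72 ± 0.682, PCDHB11 at 5.80 ± 0.317, PCDHB6 at 5.62 ± 0.389, PCDHAC2 at 5.13 ± 0.806, PCDHA6 at 4.38 ± 0.0589 and PCDHAC1 at 4.16 ± 0.309 CPM per kb. PCDHB2 stood above PCDHB11 without overlap, whereas PCDHB11, PCDHB6 and PCDHAC2 did not differ from each other beyond their spread, nor did PCDHA6 from PCDHAC1. PCDHA11 (3.33 ± 0.380), PCDHB16 (2.68 ± 0.159) and PCDHGA9 (2.46 ± 0.144 CPM per kb) came next, so PCDHGA9 was the gamma gene with the highest level per length after PCDHGC3. PCDHB10 stood at 1.48 ± 0.106 and PCDHGA10 at 0.685 ± 0.0172 CPM per kb. The lowest were PCDHA1, at 0 counts in every library, and PCDHB1, PCDHGB4 and PCDHGB5, each with at most 2 counts in a library, which is under the level that a count of 0 allows.

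**Figure D4:**
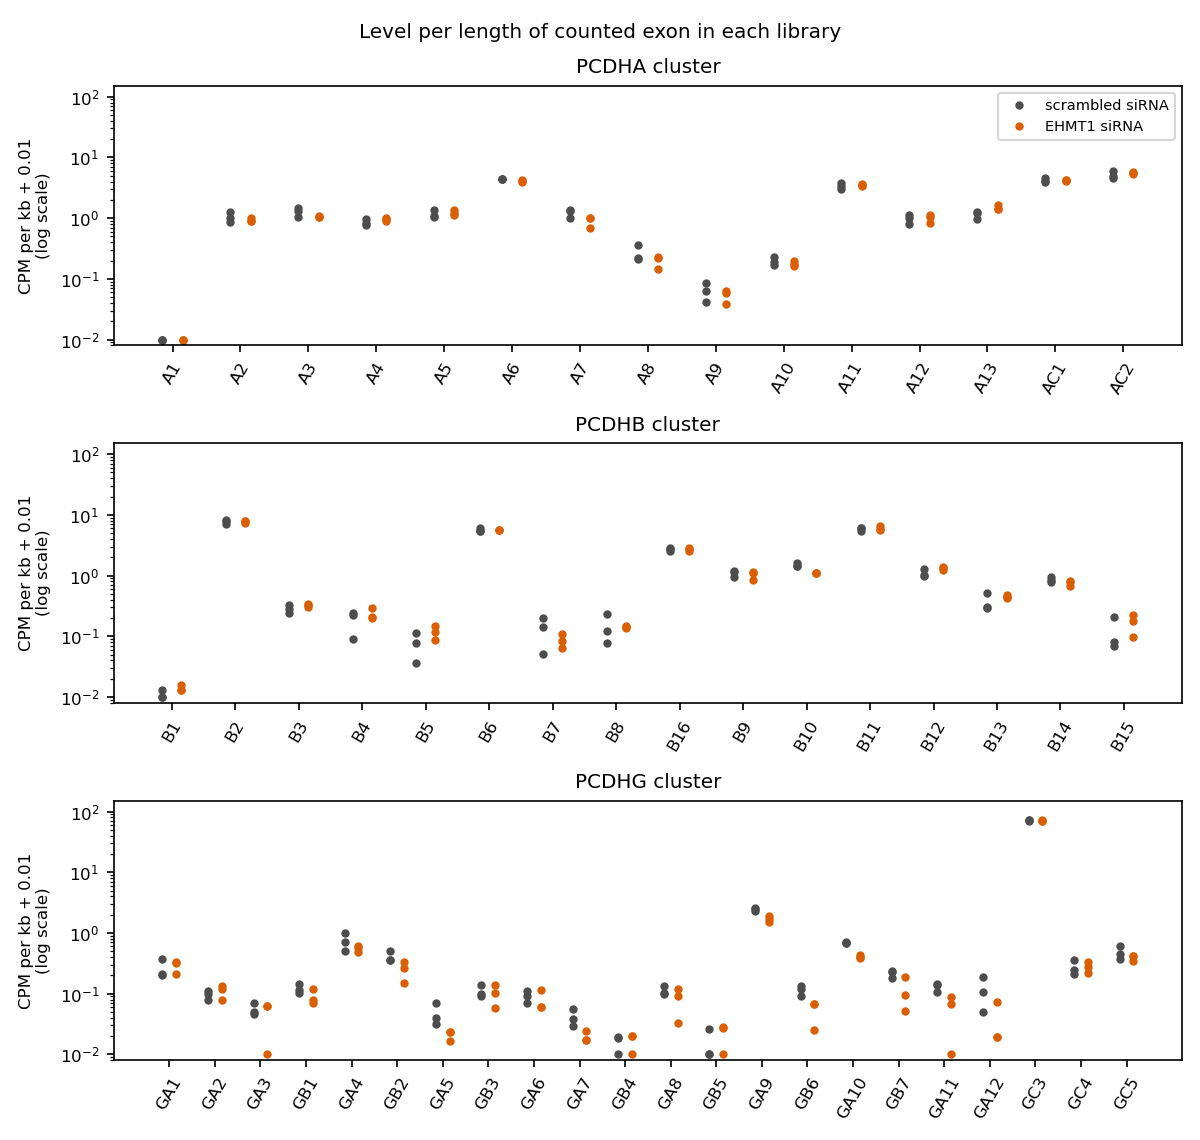
Level per length (CPM per kb of exon that belongs to that gene alone, plus 0.01, logarithmic axis) of each gene in its chromosomal order, 1 point per library. PCDHGC3 stands above every other member at about 71.3 CPM per kb, and most gamma A and B genes lie under 1 CPM per kb.

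Strand-resolved counts changed the picture for a few members. The second strand column, which holds reads in the sense of these genes, took 87.1% to 89.0% of all strand counts. Of the reads over beta, gamma A, gamma B and gamma C-type exons, 6.39%, 5.76%, 6.91% and 6.62% lay on the opposite strand, against 22.1% for the 13 alpha variable genes and 6.66% for the 2 alpha C-type genes. In PCDHA2 the opposite strand held 588 of 652 strand counts over the 6 libraries (90.2%), so its unstranded level is mostly not sense RNA. It held 41.6% in PCDHA3, 46.8% in PCDHA10, 38.2% in PCDHA9 and 27.9% in PCDHA8. PCDHA6, PCDHA2, PCDHA3 and PCDHA11 gave most of the opposite-strand reads of the alpha variable genes, with 631, 588, 573 and 495 counts.

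Summed over the alpha variable genes, these opposite-strand reads overlapped between the groups. Divided by the unstranded gene counts in the same way as CPM, the alpha variable genes gave 13.2, 14.5 and 16.9 in the scrambled libraries and 15.6, 16.3 and 14.2 opposite-strand CPM in the EHMT1 siRNA libraries. PCDHA2 alone gave 1.99, 2.17 and 3.06 against 2.35, 2.23 and 2.12, which overlap as well. PCDHA10, picked out after its values were seen, gave 0.910, 0.852 and 0.955 against 0.784, 0.801 and 0.689 without overlap. These rest on 28 to 43 counts per library. PCDHA1, PCDHA3, PCDHA8 and PCDHA9 overlapped, and in the unstranded column 30.9% of all genes tested did not overlap. The few opposite-strand reads of gamma B, 2 to 12 counts per library, were lower with EHMT1 siRNA too. So were its second strand counts (115, 111 and 108 against 58, 72 and 61), and whether the 2 falls are separate was not tested. In the second strand column the alpha cluster had 0 genes called at an edgeR adjusted p under 0.05, and PCDHA3 stood at -0.47 (edgeR adjusted p = 0.0652). The share of all genes called in that column was 12.8%.

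PCDHB2 showed the opposite case, a gene that the unstranded column undercounts. It had 1343, 971 and 1195 unstranded counts in the scrambled libraries and 1096, 1130 and 1127 in the EHMT1 siRNA libraries, but 3805, 3385 and 3302 against 3241, 3030 and 3140 in the second strand column, 2.90 times as many over all libraries. PCDHB1-AS1, an annotated antisense RNA, took 2522, 2473 and 2180 against 2208, 1998 and 2083 counts in the other strand column and at most 2 in the unstranded one. Added to the unstranded PCDHB2 counts, these gave 3865, 3444 and 3375 against 3304, 3128 and 3210, close to the second strand counts of PCDHB2. In the second strand column PCDHB2 had a log2 fold change of -0.11 (SE 0.056, edgeR adjusted p = 0.246). With these reads, the beta cluster summed to 159.4, 163.9 and 159.8 CPM with scrambled siRNA and 155.8, 154.2 and 156.4 CPM with EHMT1 siRNA. That is 3.47% lower and without overlap, where the unstranded sums overlapped. The mean of the sums went from 161.0 to 155.4 CPM, and that of PCDHB2 alone from 81.5 to 75.7 CPM. PCDHB2, which was not called, thus makes up the whole difference. PCDHB16 also had more counts with strand, 1.52 times as many, and PCDHGA9 and PCDHGA10 were called lower in either column.

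**Figure D5:**
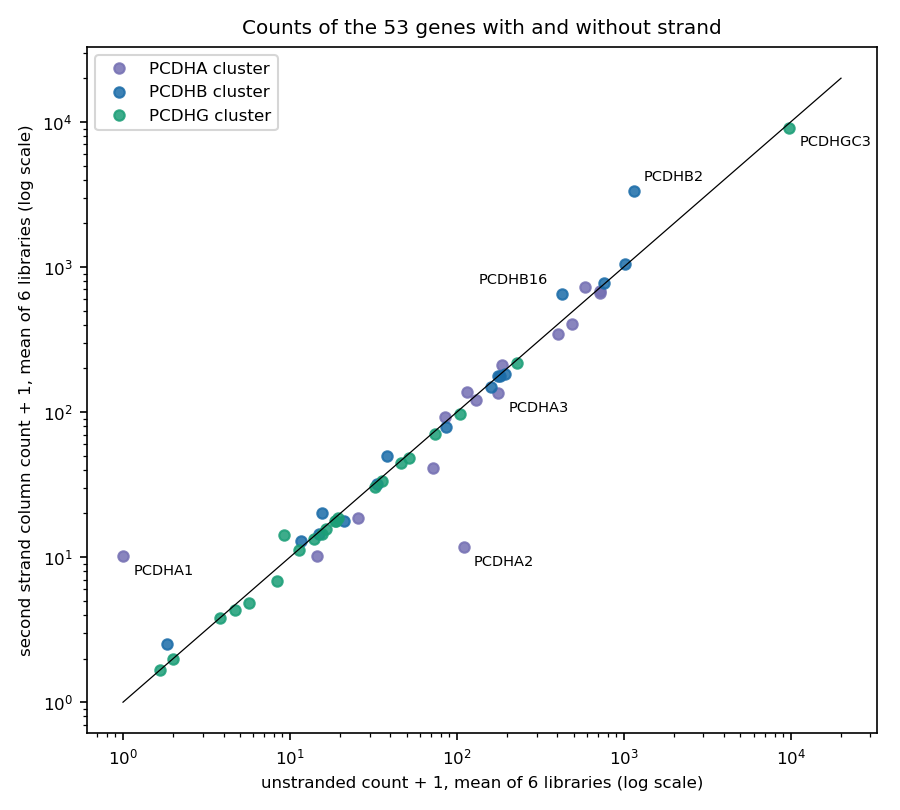
Mean count over 6 libraries in the unstranded column (horizontal axis) and in the second strand column (vertical axis), each plus 1 on a logarithmic scale, for the 53 genes, with a line where both are equal. PCDHB2 and PCDHA1 lie above the line and PCDHA2 far below it, while PCDHGC3 and most others lie close to it.

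Genes known to act on these clusters were read from the same fit. Of 17 tested genes for promoter choice and insulation, 0 rose and 4 fell by edgeR's test (23.5% lower, against 6.54% of all genes and 10.5% of genes above 8 CPM), as with DESeq2, with a median log2 fold change of -0.10 (at an unadjusted p under 0.05, 0 were higher and 7 lower). They were CDCA5, the cohesin protector sororin (-0.39, edgeR adjusted p = 0.000274), MAZ, a zinc finger factor that works with CTCF (-0.42, 0.00797), SMC3, a cohesin core subunit (-0.25, 0.0148), and ESCO2, a cohesin acetyltransferase (-0.28, 0.0465). CTCF itself, chosen for its role and not by its p, was at -0.17 (edgeR adjusted p = 0.148). The SMC3 call was lost without any 1 EHMT1 siRNA library and that for MAZ without EHMT1 siRNA replicate 2, and ESCO2 was called in 7 of 15 settings. CDCA5, SMC3 and ESCO2 are also needed for chromosome segregation in dividing cells.

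Of 26 tested genes of DNA methylation and silencing, 0 rose and 5 fell by edgeR's test, EHMT1 as the siRNA target among them (19.2% lower, against the same 6.54% and 10.5%), with a median of -0.10 (at an unadjusted p under 0.05, 2 were higher and 10 lower, and DESeq2 called 0 higher and 6 lower). Besides EHMT1 these included CBX1, a heterochromatin protein that binds methylated lysine 9 (-0.32, edgeR adjusted p = 0.00126), LRIF1, a partner of SMCHD1 (-0.26, 0.0168), and EHMT2 (-0.21, 0.0334). The calls for LRIF1 and EHMT2 were lost without any 1 EHMT1 siRNA library. SMCHD1, a chromatin protein known to silence these clusters, was named for that role and had a log2 fold change of 0.02 (SE 0.057).

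Of 18 tested intracellular partners of the protocadherin tails, 1 rose and 1 fell, with a median of 0.05. That is 5.56% each way, against 5.81% of all genes higher and 6.54% lower. PTK2B, the kinase PYK2, rose from 2.16, 2.88 and 2.47 CPM to 3.52, 3.52 and 4.47 CPM (log2 fold change 0.62, edgeR adjusted p = 0.0180). MARCKS, a membrane-bound actin regulator, fell by 0.21 on the log2 scale (edgeR adjusted p = 0.0164), a call lost without any 1 EHMT1 siRNA library. The call for PTK2B was lost without scrambled replicate 1 or EHMT1 siRNA replicate 3. Of the 8 proteases and subunits that cut protocadherins at the membrane, 0 rose and 0 fell (edgeR, and DESeq2 likewise; 1 higher and 0 lower at an unadjusted p under 0.05), with ADAM17 the nearest to the threshold (log2 fold change 0.13, adjusted p = 0.155).

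Protocadherins encoded outside the clusters included both directions, with 25% of those tested called higher and 12.5% lower, against 5.81% and 6.54% of all genes. The 3 called lie above 8 CPM, where 17.9% of all genes were called in either direction and 10.5% lower. Of 8 tested, PCDH12 rose from 22.5 ± 3.90 to 34.3 ± 1.21 CPM (log2 fold change 0.61, edgeR adjusted p = 0.000632), PCDH15 rose from 100.3 ± 1.61 to 124.3 ± 6.49 CPM (0.31, 0.00201), and PCDH18 fell from 30.7 ± 0.493 to 24.3 ± 0.721 CPM (-0.34, 0.00291; SD, n = 3 each). These 3 were called in all 15 settings. Among 16 tested protein-coding genes that lie between or next to the clusters, 1 rose and 2 fell, with a median of 0.01. These are 6.25% and 12.5%, against 5.81% and 6.54% of all genes. Both that fell lie above 8 CPM, where 10.5% of all genes were called lower. The gene that rose was again PCDH12. TAF7, a subunit of the general transcription factor TFIID that lies between members, fell from 117.5 ± 3.74 to 94.4 ± 1.13 CPM (-0.32, edgeR adjusted p = 0.00121), and ZMAT2, a splicing factor, fell from 84.0 ± 5.73 to 71.5 ± 2.72 CPM (-0.23, 0.0213; SD, n = 3 each). ZMAT2 was not called when scrambled replicate 1 was omitted, nor when an EHMT1 siRNA library was, whichever of the 3.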

How the data were processed

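Poly-A RNA of RD cells was sequenced, 3 libraries per group, with groups taken from the sample titles. The authors deposited raw counts, without normalization: an unstranded column and 1 column per strand, in the layout of the STAR gene count table. The submitters' processing notes name STAR 2.5, HTSeq 0.6.1, DESeq2 and hg19. The identifiers (58352 of 61552 in GENCODE 29) are a later set than hg19, so no coordinates of the counted genes are given (promoter windows carry RefSeq's own build), and exon lengths from GENCODE 29 are approximate for these files. Reads that named no gene (20.0% to 21.2%) stayed out of library sizes and tests.

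The test used edgeR 4.0.16 (R 4.3.3) on the unstranded column, after filterByExpr at a minimum count of 10 and TMM scaling. It was a robust quasi-likelihood F test of group, with Benjamini-Hochberg adjustment over all genes and a threshold of 0.05. The script was tested on simulated data. CPM uses TMM library sizes. Without strand, reads of a gene and its antisense partner cannot be told apart. Alternatives were RLE and upper quartile size factors, no filter or 1 CPM in 3 libraries, DESeq2 1.42.0, limma-voom (3.58.1), a replicate block, the second strand column, an adjusted p under 0.01 and leaving out each library.

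Every member could be named. Values in each library were given for members called and for the 2 most counted of each cluster. From other lists came up to 3 tested genes with the smallest adjusted p, and every called gene where 5 or fewer were called. Other genes are marked, and 1 gene that the rule names is not reported here. PCDHA7, PCDHA13 and the low gamma genes were given per library after their values were seen. Members and lists were chosen with earlier results of these data known.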

Additional observations from a re-analysis of the deposited data

Results flagged for a closer look

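PCDHA1 had 0 counts in the unstranded column in all 6 libraries, while both strand columns, which the comparisons above did not use for this gene, held reads for it. The column for the opposite strand held 33 to 69 counts per library, with a median of 46. The column for the gene's own strand held 4 to 13 counts per library, with a median of 9. Both medians lie above 3 counts, the level that a count of 0 allows.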

How the results depend on the processing

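Ratios of group means for the summed clusters moved by less than the spread of the libraries under every alternative run for them, although the beta sums overlapped between groups in the unstranded column and not in the second strand column (ratio 1.00 and 0.965). No value turned its direction past the threshold. Leaving out 1 library at a time gave 0 to 1 alpha genes higher and 0 to 2 lower, 0 to 1 beta genes higher and 0 to 1 lower, and 0 gamma genes higher and 1 to 3 lower. The extra calls in the alpha and beta clusters came without scrambled replicate 2, when 1625 genes rose and 1923 fell among all genes against 1084 and 1220 with all libraries. Without EHMT1 siRNA replicate 1, 2 or 3 these were 565 and 607, 452 and 484, and 482 and 528. For the lists the same step gave 0 to 1 higher and 1 to 5 lower for promoter choice, 0 to 1 and 3 to 7 for silencing, 0 to 1 and 0 to 2 for partners, and 1 to 2 and 1 to 4 for neighbours.

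With DESeq2, and with the second strand column, 0 beta genes were called lower. The second strand column and upper quartile size factors each gave 1 silencing gene higher. At an adjusted p under 0.01, lower calls were 0 beta genes, 1 gamma gene, 2 promoter choice genes, 3 silencing genes, 0 partners and 1 neighbour, and 0 partners were called higher. The causes were not tested, beyond the fewer libraries or stricter threshold by construction.

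Same-numbered libraries of the 2 groups did not deviate together (correlations 0.0555, 0.0154 and 0.0250), so the numbers were not taken as pairs. With a replicate block, 1 alpha gene (PCDHA7, log2 fold change -0.46, edgeR adjusted p = 0.0429) was called lower and 1 silencing gene higher, and 1474 genes rose and 1632 fell in all.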
